A study of Mus musculus with 21 samples.

Results

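The lysosomal hydrolases and membrane proteins followed here are 41 named genes, chosen by symbol from the 54532 genes listed in each of 2 deposited RNA sequencing tables of primary mouse brain microglia. Cathepsins were left out of the set. By role the members are 11 membrane and transport proteins, 9 glycosidases, 7 enzymes that break down glycosaminoglycans, 9 lipid enzymes and lipid-transfer proteins, 4 further luminal proteins (the peptidases Tpp1 and Dpp7, the phosphatase Acp2 and progranulin, Grn) and the transcription factor Tfeb. All 41 were listed in both tables, and all 41 passed the filter on low values (normalized counts averaging at least 10 across a table's libraries).

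The labels set mice lacking Trem1, a myeloid receptor that amplifies inflammatory signalling, beside wild type during aging. On the 5XFAD background the mice with altered Trem1 were Trem1+/-, set beside 5XFAD and wild type. 5XFAD is a model that expresses familial Alzheimer's disease transgenes in neurons and builds up amyloid. The aging table held 4 groups, wild type and Trem1-/- mice, each young and aged. The 5XFAD table held 3 groups of adult mice: wild type, 5XFAD, and 5XFAD that were also Trem1+/-. Each group had 3 libraries. The labels gave age in words without months, and did not state the strain, the isolation method, the deleted stretch of Trem1 or whether libraries came from separate animals, so p-values measure only the spread between these samples, which may be technical. The 2 tables were normalized apart, so tests were made only within a table. Comparisons within a table share libraries and are not independent of each other.

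Counts of Trem1 itself were not lower in young libraries labelled Trem1-/- than in young wild type. The deleted stretch is not stated, so gene counts can neither bear out nor contradict the label. Its normalized counts were 25.2, 7.65 and 8.74 in young wild type and 89.4, 99.8 and 89.5 in young libraries labelled Trem1-/-, with 269, 188 and 237 in aged wild type and 124, 124 and 244 in aged libraries labelled Trem1-/-. The young libraries labelled Trem1-/- were thus all above young wild type, so every direction given for those groups rests on the labels alone. In the 5XFAD table Trem1 was at 62.7, 0 and 30.2 in wild type, 13.7, 32 and 36.8 in 5XFAD and 25.1, 18.1 and 38.3 in 5XFAD Trem1+/-, and these groups overlapped.

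Lysosomes are the acidic compartment in which cells take apart material they engulf or recycle. Soluble hydrolases each cut 1 kind of bond in sugars, lipids or proteins, while heavily glycosylated membrane proteins such as Lamp1 and Lamp2 line the organelle and transporters carry the products out. Microglia, the phagocytes of the brain, rely on this system to clear debris and amyloid, and inherited loss of many of these enzymes causes storage disease. Tfeb is known as a master regulator of lysosomal genes and binds a short element around the core CACGTG in their promoters.

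The promoter windows (250 bases before to 50 after the start, RefSeq, GRCm38.p6) of 37 members were searched for that core. Galns, Npc1, Asah1 and Plbd2 had no entry. TCACGTG, read on either strand and so also as CACGTGA, stood in 10 of the 37 members (27.0%) against 4.29% of all 27025 genes with a window. There were 32851 windows, and a gene with several was counted if any of them held it. The shorter CACGTG stood in the same 10 members against 8.09% of all genes. TCACGTGA holds both orientations and was counted under either. The first match of each window is printed with 20 bases on both sides, 5′ to 3′ on the strand of the gene, with that match in capitals and any further one in lower case, because these are the members for which a Tfeb-type element could be read directly.
Arsa (chr15:89477415-89477461, minus strand): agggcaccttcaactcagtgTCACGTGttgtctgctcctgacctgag
Cln3 (chr7:126583359-126583405, minus strand): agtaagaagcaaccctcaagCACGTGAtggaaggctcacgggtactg
Dpp7 (chr2:25356379-25356426, minus strand): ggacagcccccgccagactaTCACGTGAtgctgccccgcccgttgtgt
Gaa (chr11:119267802-119267848, plus strand): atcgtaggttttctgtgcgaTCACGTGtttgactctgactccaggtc
Gla (chrX:134601206-134601253, minus strand): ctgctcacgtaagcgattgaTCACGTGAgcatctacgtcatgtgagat
Glb1 (chr9:114401009-114401055, plus strand): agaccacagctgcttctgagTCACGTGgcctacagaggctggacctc
Lamp1 (chr8:13159079-13159125, plus strand): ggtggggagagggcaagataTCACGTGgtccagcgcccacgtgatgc
Mcoln1 (chr8:3500427-3500473, plus strand): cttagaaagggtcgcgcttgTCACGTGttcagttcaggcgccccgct
Naglu (chr11:101070000-101070046, plus strand): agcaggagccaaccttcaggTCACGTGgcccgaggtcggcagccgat
Sgsh (chr11:119355513-119355559, minus strand): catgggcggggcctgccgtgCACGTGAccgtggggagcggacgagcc
The first matches began 17 bases (Arsa) to 228 bases (Gla) before the start. A match describes letters in this window and is neither a binding site nor a cause.

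Levels spanned a wide range. Per kilobase of exon, Psap, the precursor of the saposins that present lipids to hydrolases, was highest in the aging table with a mean normalized count of 11958, followed by Laptm5 (8607), Grn (5915) and Cd68 (4426). Gla, the galactosidase lost in Fabry disease, was lowest at 24.9, and Galc, the galactocerebrosidase, next at 39.1. The same 4 genes led the 5XFAD table, with Psap at 11097, Laptm5 at 8747, Grn at 6090 and Cd68 at 5954, and Gla was again last at 36.4. The least even members across the 5XFAD table were Arsb, Gla and Galns, with coefficients of variation over the 9 libraries of 40.7%, 38.7% and 37.3%. In the aging table Gla (38.3%) and Galns (32.0%) varied most and Ids least (6.93%). Reads on genes ran from 8600878 to 19411434 per library in the aging table and from 9264999 to 18698707 in the other, and Gla had 23.0 to 129 normalized counts per aging library.

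**Figure D1:**
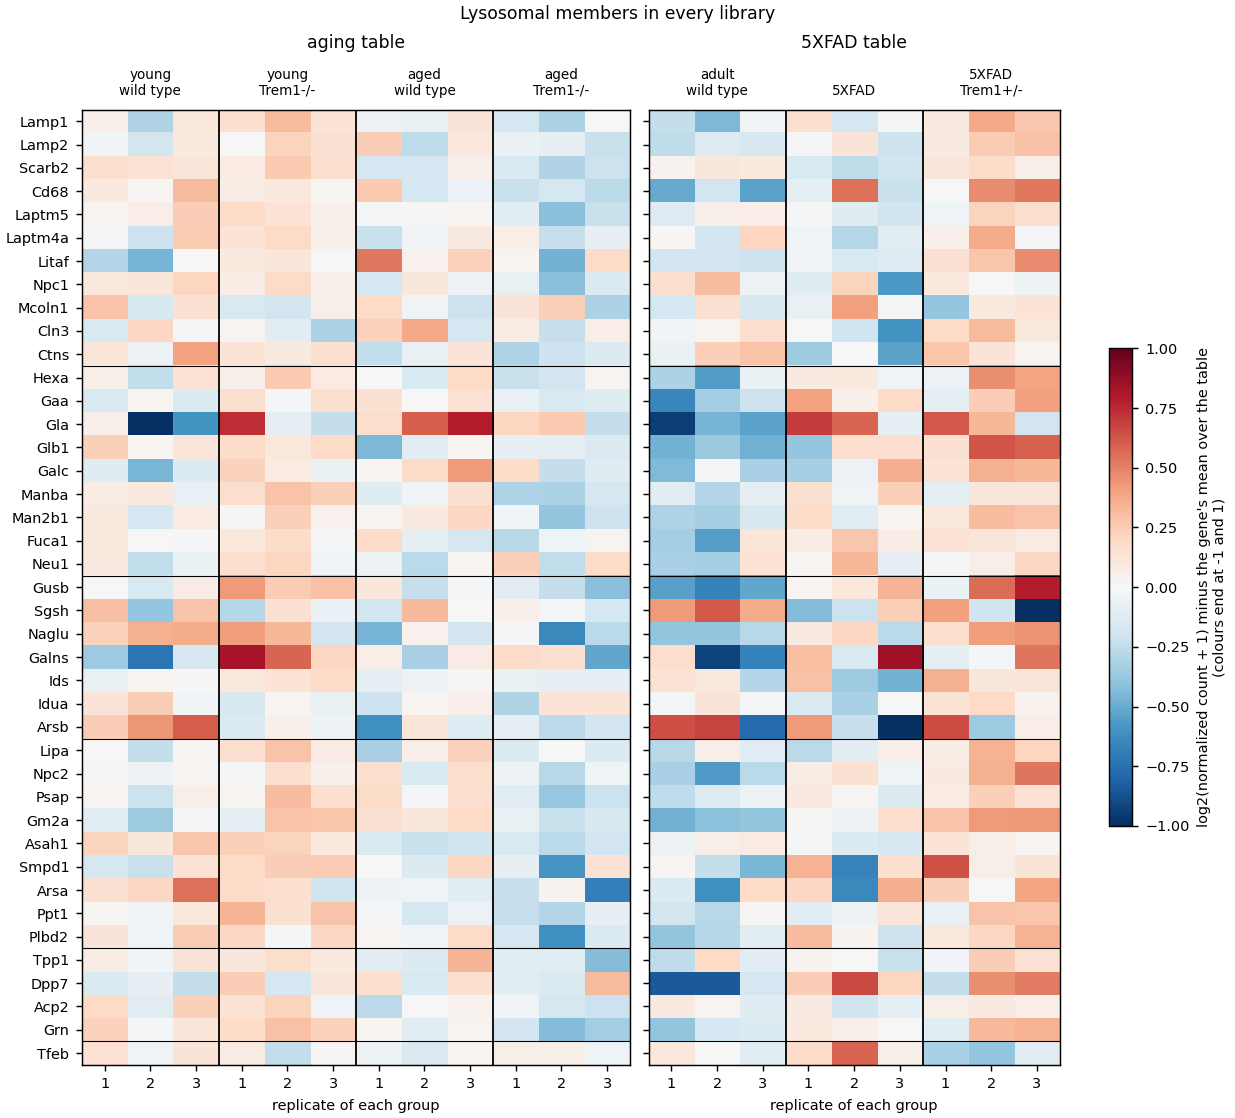
Heat map of the 41 members (rows, ordered by role and divided by lines) in every library (columns, replicates 1 to 3 of each group), coloured by log2(normalized count + 1) minus the gene's mean over its table, with colours ending at -1 and 1. Of the 41 members, 35, 34 and 29 lay above their table mean in young libraries labelled Trem1-/- 1 to 3 and 10, 7 and 9 in the aged ones.

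Markers of other cells moved with several groups. Summed normalized counts of 15 neutrophil markers were 17587 to 26319 in young wild type, 38904 to 78057 in young libraries labelled Trem1-/-, 83486 to 150545 in aged wild type and 69209.5 to 160250.0 in aged libraries labelled Trem1-/-. The 12 microglia markers summed to 449833 to 506153, 431818 to 449067, 348931 to 386114 and 325317 to 361861 in the same order, and the 8 markers of choroid plexus and ependyma to 6082 to 15009, 2434 to 14896, 27119 to 44948 and 31113 to 41027. In the 5XFAD table microglia markers summed to 432010.0 to 480338 in wild type, 349072 to 393195 in 5XFAD and 414647 to 466549 in 5XFAD Trem1+/-, and choroid plexus and ependyma markers to 2354 to 6626, 15030.2 to 81985 and 18314 to 103455. Neutrophil markers there summed to 14298 to 58023 in wild type (middle library 23399), 21883 to 31254 in 5XFAD and 22438.5 to 33221 in 5XFAD Trem1+/-. The 8 neuron markers, all low, summed to 90.2 to 129, 253 to 563 and 146 to 222 in the same order. No microglia or neutrophil marker was at 0 in all libraries of a group; the T cell marker Trac was at 0 throughout. Many lysosomal members are expressed by any phagocyte, and in bulk RNA fewer cells of a type and less RNA per cell cannot be told apart.

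**Figure D2:**
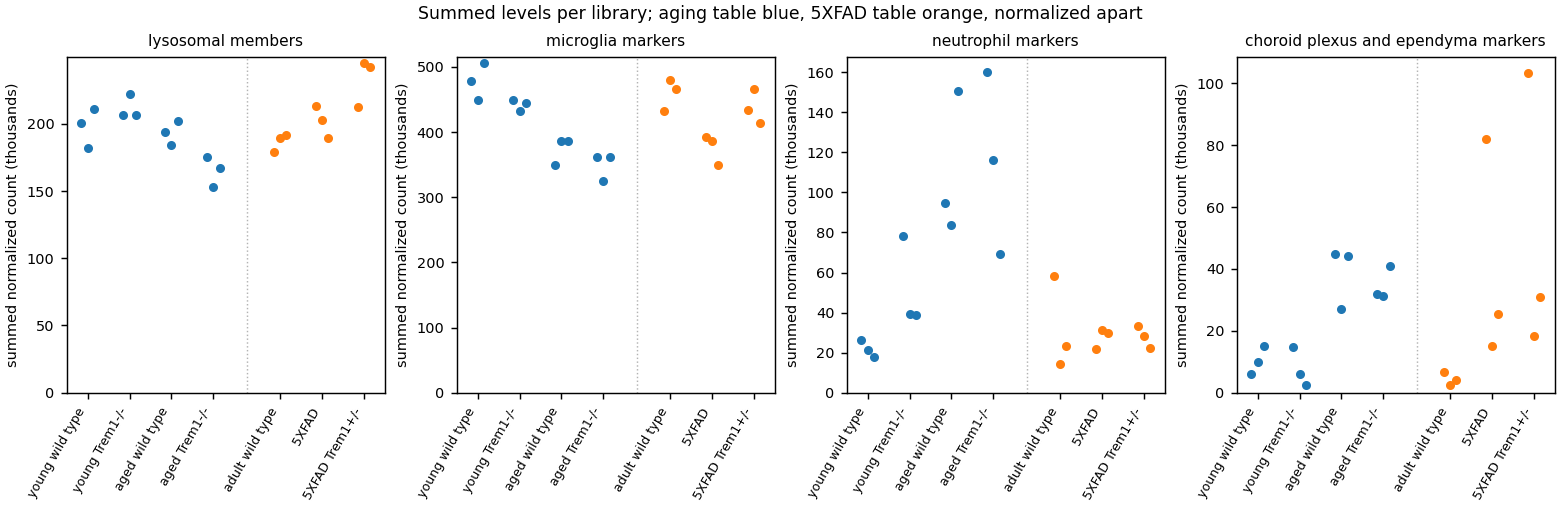
Summed normalized counts of the 41 members and of 3 marker lists in each library (1 point each), aging table blue and 5XFAD table orange. The members summed to 153049 to 175635 in the aged libraries labelled Trem1-/-, all below the 182141 to 210804 of young wild type, and to 212743 to 245090.0 in 5XFAD Trem1+/-, all above the 179269 to 191805 of adult wild type.

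Aging in wild type changed 3 of the 41 members past an adjusted p of 0.05: Litaf rose and Arsb and Asah1 fell. Of all 16086 genes tested 8.67% passed, 6.43% as higher and 2.24% as lower. Arsb, the sulfatase that acts on dermatan sulfate (chr13:93771630-93943016, plus strand; GRCm38, GENCODE M21), stood at 3866, 4431 and 4965 normalized counts in young wild type and 2134, 3538 and 2985 in aged wild type. It was 1.56-fold lower (log2 difference -0.64 ± 0.14 SE, adjusted p = 0.00526). Asah1, the acid ceramidase, went from 5563, 5163 and 5783 to 4318, 4106 and 4165, a log2 difference of -0.39 ± 0.092 (adjusted p = 0.00828). For both genes every aged library lay below every young one. Litaf, a late endosomal membrane protein, was at 1187, 1054 and 1454 in young and 2093, 1494 and 1707 in aged wild type and rose by 0.52 ± 0.16 (adjusted p = 0.0481). That call was lost in 12 of 23 alternative settings, among them edgeR.

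The rest of the set lay on either side of 0. Gla had the highest difference, 1.25 ± 0.46 (adjusted p = 0.101), with counts of 77.4, 23 and 48.9 in young and 84.4, 113 and 129 in aged wild type. These groups did not overlap, but the young libraries were spread widely. The median difference of the 41 members was -0.032, with 16 above 0, against a median of -0.0067 over all genes. Groups did not overlap for 4 members higher and 7 lower, where 15.1% and 11.2% of all genes did so. Lamp1 (11658, 9159 and 12154 young, 10888, 10790.4 and 12349 aged; 0.054 ± 0.11, adjusted p = 0.835) and Cd68 (5897, 5599 and 6868 and 6611, 4882 and 5295; -0.14 ± 0.11, adjusted p = 0.524) had overlapping groups.

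Among 148 other lysosomal genes in 7 lists, 140 were tested, and 9 rose and 9 fell with age in wild type. Sorl1, a sorting receptor of the trans-Golgi (1.93 ± 0.14, adjusted p = 1.04e-07), Igf2r, the mannose 6-phosphate receptor that delivers hydrolases (2.36 ± 0.34, adjusted p = 0.000167), and Ctse, an aspartic protease of immune cells (2.62 ± 0.55, adjusted p = 0.003), all higher, had the smallest p. Neutrophil markers rose in the same comparison (14 of 15 past the threshold), as did 9 of 11 tested monocyte markers, while 8 of 12 microglia markers fell. Their part in these differences was not tested. Scaled to the microglia markers instead, where the median of all genes was 0.39, the median of the members was 0.37, 22 members were called higher, and Asah1 changed sign to 0.014. On that scale 4054 of 16086 genes were called in either direction.

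Young libraries labelled Trem1-/- differed from young wild type in 1 member, Galns (1 of 41, where 2.58% of all genes passed and 2.36% as higher, 0.224% as lower). Galns, a sulfatase that acts on keratan sulfate, had normalized counts of 233, 180.4 and 268 in wild type and 532, 450.3 and 349 in the labelled group. It was 1.95-fold higher (0.96 ± 0.25, adjusted p = 0.0354), with no overlap between groups. The annotation has genes overlapping Galns on both strands. Where exons are shared and the strand setting is unknown, their reads may not be told apart from its own. On the other strand the same holds, among others, for Fam171a2 and Grn, Cap1 and Ppt1, Tmem202 and Hexa, Grtp1 and Lamp1, Rmc1 and Npc1, and Snn and Litaf. Tmppe overlaps Glb1 on the same strand. Whole gene spans were compared, so whether exons are shared was not tested. Arsb had the lowest difference, -0.48 ± 0.14 (adjusted p = 0.0788), at 2953, 3379 and 3147 in the labelled group.

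Most members lay slightly higher in the young labelled group: 28 of 41 were above 0, with a median of 0.099 against -0.0076 over all genes. All 9 glycosidases were above 0 (median 0.19), as were 7 of 9 lipid genes (median 0.21), and none of these genes passed the test. Lamp1 (12585, 14006 and 12406; 0.25 ± 0.11, adjusted p = 0.307) was among 9 members whose 3 labelled libraries were all above wild type, where 11.3% of all genes were, and Arsb was the 1 member with all below (9.05% of all genes). Of the 7 lysosomal lists, Sorl1 (1.43 ± 0.14, adjusted p = 7.79e-06) and the dipeptidyl peptidase Ctsc (0.62 ± 0.11, adjusted p = 0.00119) rose and no gene fell. Neutrophil markers rose here too (5 of 15), with 5 of 11 monocyte markers, and their part was not tested. The call of Galns was lost without either of the first 2 replicates of young wild type, or of the young labelled group.

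Among aged mice no member, and no gene at all, passed the threshold by limma between the libraries labelled Trem1-/- and wild type (0% of 16086 genes, with 1545 genes at an unadjusted p under 0.05). By edgeR 0 genes passed, and by DESeq2 23, of which 0 were members. DESeq2 gave an adjusted p to only 4547 genes and 34 members here. In the limma fit 8 of the 41 members had an unadjusted p under 0.05, with 34 of 41 below 0 and a median of -0.16 against -0.016 over all genes. Psap stood at 36867, 32254 and 36568 in aged wild type and 30149, 25082 and 28086 in the aged labelled group. Every labelled library was below every wild type one, and the difference was -0.34 ± 0.092 (adjusted p = 0.367). Grn, the lysosomal and secreted growth factor whose loss causes a lipofuscinosis (chr11:102430315-102437048, plus strand), went from 20647, 18842 and 20719 to 17745, 14998 and 15952, again without overlap (-0.31 ± 0.085, adjusted p = 0.367). The highest member was Neu1, a sialidase, at 0.16 ± 0.16 (adjusted p = 0.807), and the lowest Gla at -0.44 ± 0.46 (adjusted p = 0.814). In 8 members all labelled libraries were below all wild type libraries (6.25% of all genes), and in 0 were they above (5.91%).

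In the libraries labelled Trem1-/-, Grn, Gusb, Laptm5, Ppt1, Scarb2, Psap and Asah1 fell with age (7 of 41 members), where 1.71% of all genes passed and 0.634% passed as lower and 1.08% as higher, and 0 members rose. By role they were 3 lipid genes, 2 membrane proteins, 1 glycosaminoglycan enzyme and progranulin. Asah1 had no promoter window, and none of the others of these 7 held TCACGTG in theirs. All 9 glycosidases lay below 0 (median -0.21) but 0 passed. In all, 36 members lay below 0, with a median of -0.27 against 0.00057 over all genes.

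Grn had the smallest p. It was at 23035, 24898 and 23793 in young and 17745, 14998 and 15952 in aged labelled libraries, 1.48-fold lower (-0.56 ± 0.085, adjusted p = 0.00126). Gusb, the glucuronidase that trims glycosaminoglycans (chr5:129989011-130003049, minus strand), fell from 3885, 3448 and 3537 to 2673, 2444 and 2156 (-0.58 ± 0.12, adjusted p = 0.0094). Laptm5, a membrane protein of lysosomes in blood-lineage cells, was at 37144, 35664 and 33573 young and 30053, 24268 and 27770.5 aged (-0.38 ± 0.083, adjusted p = 0.0182). Ppt1, which removes palmitate from proteins, went from 4316, 3792 and 4156 to 2912, 2795 and 3226 (-0.46 ± 0.10, adjusted p = 0.0187). In each of these 4 genes every aged library was below every young one. Scarb2, the receptor that carries glucocerebrosidase to lysosomes (-0.39 ± 0.088, adjusted p = 0.0203), and Psap (-0.40 ± 0.092, adjusted p = 0.027) fell by similar amounts. The young level of Psap was 33167, 40192 and 36260.3.

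Of the remaining members, Galns had the lowest difference (-0.60 ± 0.25, adjusted p = 0.241) and the calcium channel Mcoln1 the highest (0.11 ± 0.18, adjusted p = 0.829). Lamp1 (10004, 9059 and 11272 aged; -0.37 ± 0.11, adjusted p = 0.0767) and Cd68 (5797, 5955 and 5606 young, 4739.9, 4892 and 4613 aged; -0.29 ± 0.11, adjusted p = 0.191) did not pass. For 24 of 41 members all aged labelled libraries were below all young ones, where 9.87% of all genes were, and for 0 they were above (11.3%). The other lysosomal lists held 8 falls and 2 rises among 140 genes tested. Lgmn, the asparaginyl endopeptidase (-0.49 ± 0.083, adjusted p = 0.003), and Man2b2, a mannosidase (-0.56 ± 0.11, adjusted p = 0.00836), fell, while the Rag GTPase Rragd rose (1.81 ± 0.36, adjusted p = 0.00976). Cathepsins and legumain had 5 falls among 14 tested.

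Microglia markers fell in 3 of 12 genes in the same comparison, and their sum was lower in every aged labelled library than in every young one. All 15 neutrophil markers lay above 0 (median 1.15), of which 1 passed (Retnlg), and all 6 tested choroid plexus and ependyma markers were higher in every aged labelled library than in every young one (median 2.26), of which 1 passed (Folr1). The 10 border-associated macrophage markers summed to 15282 to 17103 in young and 12882 to 13496 in aged labelled libraries, without overlap. In young and aged wild type they summed to 11247 to 13000 and 12573 to 16679. The part of these marker lists in the falls was not tested. Relative to the microglia markers the median of all genes was 0.26, the median of the members -0.0024 and no member was called. Without the second aged labelled library 2 members passed (Grn and Gusb), and without the second or the third young one 3 did.

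**Figure D3:**
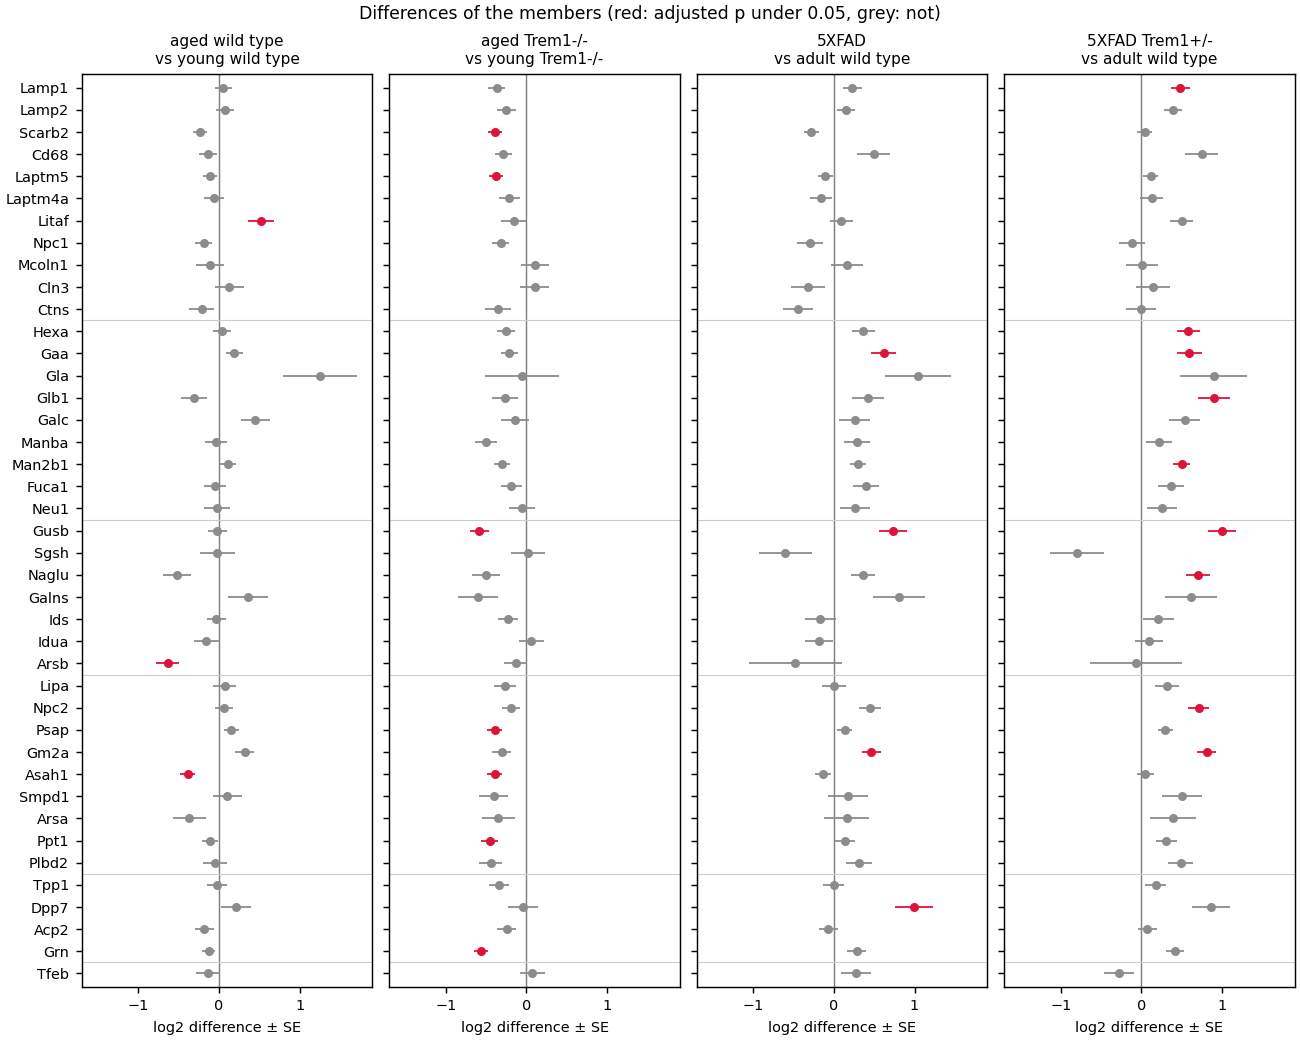
Log2 differences ± SE of the 41 members (ordered by role) in 4 comparisons, from the fit to the deposited normalized counts with n = 3 libraries a group; red points passed an adjusted p of 0.05 and grey points did not. The 7 red points for aging in libraries labelled Trem1-/- all lie below 0 and the 9 for 5XFAD Trem1+/- against wild type all above 0; the point of Asah1 for aged against young wild type changed sign when scaled to microglia markers.

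Whether aging differed between the genotypes as labelled was tested as the interaction, the genotype difference in aged mice minus that in young mice. Psap (-0.55 ± 0.13, adjusted p = 0.0226) and Gm2a (-0.63 ± 0.17, adjusted p = 0.0448) passed as lower (2 of 41, where 2.54% of all genes passed and 2.14% as lower, 0.398% as higher). Both help lipid hydrolases reach their substrates. The counts of Gm2a, the activator that presents a ganglioside to the enzyme that cuts it (chr11:55098115-55113029, plus strand), were 2341, 1981 and 2512 in young and 2824, 2749.9 and 2914 in aged wild type. In the labelled groups they were 2375, 3096 and 3069 young and 2402, 2178 and 2267 aged. Psap was at 33198, 27986 and 33936 in young wild type, so the young labelled group was the highest and the aged labelled group the lowest of its 4 group means. Grn did not pass (-0.43 ± 0.12, adjusted p = 0.0546). Its 23772, 20024 and 22141 in young wild type overlapped both 23035, 24898 and 23793 in young labelled libraries and aged wild type, but no aged labelled library.

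Of all members, 33 had an interaction below 0, with a median of -0.26 against -0.018 over all genes. Gla was lowest (-1.31 ± 0.65, adjusted p = 0.349) and Arsb highest (0.50 ± 0.20, adjusted p = 0.209). Among the other lysosomal genes 4 of 140 passed, all lower, with Sorl1 (-1.83 ± 0.20, adjusted p = 5.7e-05), Ctsc (-0.94 ± 0.15, adjusted p = 0.00132) and the proton pump subunit Atp6v1b2 (-0.70 ± 0.19, adjusted p = 0.0437) having the smallest p. Neutrophil markers (3 of 15) and monocyte markers (4 of 11) were also lower in the interaction, and their part was not tested. Both calls were lost without the second young wild type library, aged wild type library 1 or 3, or library 2 or 3 of either labelled group, and that of Gm2a also without the first young wild type library.

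The aged libraries labelled Trem1-/- had 8 members below young wild type and none above (8 of 41, where 6.67% of all genes passed and 2.02% as lower, 4.65% as higher): 4 membrane proteins, 2 glycosaminoglycan enzymes, the lipid enzyme Asah1 and Grn. Both its groups were used in comparisons above, so it is no separate test of them. Grn (-0.44 ± 0.085, adjusted p = 0.00235), Asah1 (-0.40 ± 0.092, adjusted p = 0.00784) and Laptm5 (-0.36 ± 0.083, adjusted p = 0.00815) had the smallest p. The aged labelled counts of Asah1 were 4299, 3972 and 4192, overlapping aged wild type. Arsb (-0.61 ± 0.14), Scarb2 (-0.36 ± 0.088) and Naglu, which acts on heparan sulfate (-0.63 ± 0.17), fell too, with adjusted p of 0.00902, 0.0121 and 0.0286. Naglu was at 1492, 1621 and 1642 in young wild type and 1262, 813 and 1051 in aged labelled libraries, and was the lowest member. Npc1, the cholesterol exporter, and Cd68, a heavily glycosylated protein of macrophage lysosomes, completed the 8. Of the 8 only Naglu held TCACGTG in its promoter window, and Asah1 and Npc1 had no window. In 15 members all aged labelled libraries were below all young wild type ones (10.2% of all genes) and Gla was highest (0.81 ± 0.46, adjusted p = 0.349).

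The authors' deposited table gives the same pair of groups as young wild type over aged Trem1-/-, and there the same 8 members passed an adjusted p of 0.05, all with positive values, among 7.32% of the genes with an adjusted p. In the authors' deposited table Grn had a log2 fold change of 0.44 and Asah1 of 0.41. Of the other lysosomal genes 6 rose and 15 fell in the fit made here, with Sorl1 (1.52 ± 0.14, adjusted p = 2.23e-06), Lgmn (-0.50 ± 0.083, adjusted p = 0.000435) and Igf2r (1.86 ± 0.34, adjusted p = 0.0024) at the smallest p. Microglia markers fell in 10 of 12 genes and neutrophil markers rose in 13 of 15. On the scale of microglia markers, where the median of all genes was 0.44, Grn, Asah1, Laptm5, Scarb2, Npc1 and Cd68 turned to small positive values (0.0056 to 0.082), the median of the members was 0.32 and 12 members were called higher. This scaling called 3920 of 16086 genes in either direction. Leaving out the third young wild type library or the second aged labelled one left 3 calls.

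In 5XFAD mice, 4 of 41 members were higher than in adult wild type and 0 lower (where 1.98% of all 17025 genes passed and 1.62% as higher): Dpp7, Gusb, Gaa and Gm2a. Dpp7, a dipeptidyl peptidase, had counts of 389.5, 389 and 619 in wild type and 829, 1105 and 811 in 5XFAD, 1.99-fold higher (0.99 ± 0.23, adjusted p = 0.035). Gusb went from 2769, 2519 and 2807 to 4077, 4344 and 5111 (0.74 ± 0.17, adjusted p = 0.0427). Gaa, the glycogen-degrading acid glucosidase, went from 1413, 1756 and 1922 to 2946, 2304 and 2536 (0.62 ± 0.16, adjusted p = 0.0469), and Gm2a from 1831, 1923 and 1949 to 2577, 2448 and 2860.0 (0.46 ± 0.12, adjusted p = 0.0496). No 5XFAD library of these 4 genes overlapped wild type. Dpp7 and Gaa are among the 10 members, of 37 with a promoter window, that held TCACGTG there. Gusb and Gm2a are not.

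By role, all 9 glycosidases were above 0 in 5XFAD (median 0.36), as were 7 of 9 lipid genes (median 0.16) and 5 of 11 membrane and transport proteins (median -0.11). Over the set the median was 0.17 with 27 above 0, against 0.0011 over all genes. Gla was highest (1.04 ± 0.41, adjusted p = 0.235; 57.2, 79.7 and 76.1 against 181, 166 and 104) and Sgsh, which cuts sulfate from heparan sulfate, lowest (-0.60 ± 0.33, adjusted p = 0.406). Grn (15944, 18519.7 and 19054 in wild type, 22346, 21682 and 20858 in 5XFAD; 0.28 ± 0.11, adjusted p = 0.246) did not pass. Cd68 (5068, 6291 and 4957 and 6758, 10525 and 6176; 0.49 ± 0.20, adjusted p = 0.283) overlapped between groups, its second 5XFAD library standing high. Groups did not overlap for 12 members higher (9.32% of all genes) and 2 lower (8.01%). Lamp1 (0.23 ± 0.12, adjusted p = 0.388) and Psap (0.13 ± 0.091, adjusted p = 0.528) did not pass. Scarb2 was lower in all 5XFAD libraries without passing, whereas the authors' deposited table, which gives wild type over 5XFAD, has it at 0.28 with an adjusted p of 0.0393. The same 4 rises passed in the authors' deposited table, among 4.24% of its genes.

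Other lysosomal genes rose with them: 6 of 141 tested, and none fell. Gpnmb, a glycoprotein of phagocytes (7.53 ± 0.79, adjusted p = 0.000182), the tetraspanin Cd63 (1.35 ± 0.16, adjusted p = 0.000146) and Ctsl, a cysteine cathepsin (0.94 ± 0.15, adjusted p = 0.00331), had the smallest p; Gpnmb is near 0 in wild type, so its size depends on the pseudocount. Among microglia markers 3 of 12 fell and 1 rose, 2 of 8 astrocyte markers rose, and choroid plexus and ependyma sums were higher in all 5XFAD libraries. Their part was not tested. Relative to the microglia markers (median of all genes 0.24) the members' median was 0.42 and 12 were called higher, where 694 of 17025 genes were called in either direction. The 4 calls are near the threshold: edgeR called none of the 41, TMM scaling 1, and none was called without the first or second wild type library or without any 1 of the 5XFAD libraries.

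Between 5XFAD Trem1+/- and 5XFAD no gene passed (0% of 17025 genes by limma, with 883 genes at an unadjusted p under 0.05, 0 by edgeR, and 12 by DESeq2, of which 0 were members). Scarb2 and Tfeb had the smallest p of the members. Scarb2 was at 8857, 8238 and 8580.0 in 5XFAD and 10689.5, 11198 and 10247 in 5XFAD Trem1+/- (0.32 ± 0.093, adjusted p = 0.793), without overlap. Tfeb, at 778, 1021 and 706 in 5XFAD and 544, 518 and 634 in 5XFAD Trem1+/-, also without overlap, had the lowest difference of all members (-0.55 ± 0.19, adjusted p = 0.863). Tfeb lies 440 kb from Trem1 on chromosome 17. Glb1, the galactosidase that trims gangliosides, was highest at 0.47 ± 0.20 (adjusted p = 0.931). In all, 31 of 41 members were above 0, with a median of 0.23 against 0.019 over all genes, and 9 members had all Trem1+/- libraries above all 5XFAD ones (5.24% of all genes) while Tfeb was the 1 with all below (6.61%). By role, 10 of 11 membrane proteins and 9 of 9 lipid genes were above 0, and 4 of 9 glycosidases. The microglia marker sum was likewise higher in every 5XFAD Trem1+/- library than in every 5XFAD one, and on that scale the median of the members was 0.011, with all genes at -0.19.

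In 5XFAD Trem1+/-, 9 of 41 members were higher than in adult wild type and 0 lower (where 2.78% of all genes passed and 2.04% as higher), with 36 above 0 and a median of 0.37 against 0.018 over all genes. By role these were 4 of 9 glycosidases (Man2b1, Glb1, Hexa and Gaa), 2 of 9 lipid genes (Gm2a and Npc2), 2 of 7 glycosaminoglycan enzymes (Gusb and Naglu) and 1 of 11 membrane proteins (Lamp1). This comparison shares the wild type libraries with the one of 5XFAD, so the rises in both are not independent.

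Gm2a was at 3116, 3433 and 3448 in 5XFAD Trem1+/-, 1.75-fold above wild type (0.81 ± 0.12, adjusted p = 0.000959), with its 3 libraries close together. Npc2, which hands cholesterol to Npc1, stood at 2649.5, 2247 and 2761 in wild type and 3534, 4249.7 and 4809 (0.71 ± 0.13, adjusted p = 0.00648). Gusb reached 3839.6, 5932 and 6938, 2-fold higher (log2 difference 1.0 ± 0.17, adjusted p = 0.00648), the first library being well below the other two. Man2b1, the lysosomal alpha-mannosidase (0.50 ± 0.10, adjusted p = 0.0117), Naglu (0.70 ± 0.15, adjusted p = 0.0149) and Glb1 (0.90 ± 0.20, adjusted p = 0.017) followed. Glb1 went from 536, 577 and 534 to 829, 1149 and 1122. Hexa, a ganglioside-degrading glycosidase, Lamp1 and Gaa passed with adjusted p of 0.032, 0.0365 and 0.0464. Lamp1, the main lysosomal membrane glycoprotein, was at 10166, 8782 and 11774 in wild type, 13430.1, 10592 and 11861 in 5XFAD and 12740.0, 15549 and 14462 in 5XFAD Trem1+/-, with a log2 difference of 0.48 ± 0.12 from wild type to the last. Of these 9, Lamp1, Gaa, Glb1 and Naglu have TCACGTG in their promoter window, as had 10 of the 37 members with a window. Sgsh, which has it too, was the lowest member (-0.80 ± 0.33, adjusted p = 0.228).

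Members that did not pass included Grn (19294, 26147 and 26550.5 in 5XFAD Trem1+/-; 0.42 ± 0.11, adjusted p = 0.0574), Cd68 (7189.8, 9994 and 10397; 0.75 ± 0.20, adjusted p = 0.0843) and Psap (25429, 27734 and 29288 in wild type, 32342, 30584 and 27498 in 5XFAD, 32063, 35669.8 and 33445 in 5XFAD Trem1+/-; 0.30 ± 0.091, adjusted p = 0.0872). All 3 had no overlap with wild type, as had 19 of 41 members (where 12.9% of all genes were higher without overlap). Other lysosomal genes again rose (8 of 141) and none fell: Cd63 (1.62 ± 0.16, adjusted p = 2.47e-05), Gpnmb (7.56 ± 0.79, adjusted p = 0.000177) and Ctsl (1.05 ± 0.15, adjusted p = 0.000988) had the smallest p, and 4 of 14 cathepsin-list genes were among the 8. Choroid plexus and ependyma markers were higher in every 5XFAD Trem1+/- library than in wild type, most in the first. The astrocyte marker Gfap (3.9 ± 0.74, adjusted p = 0.024) and the microglia markers Fcrls (0.78 ± 0.13, adjusted p = 0.00361) and Olfml3 (0.47 ± 0.089, adjusted p = 0.00724) also rose. The part of these markers was not tested. Scaled to the microglia markers (median of all genes 0.049), the members' median was 0.40 and 8 were called higher, where 409 of 17025 genes were called in either direction. Without the first Trem1+/- library 12 members were called. Without the third Trem1+/- library 2 members were called (Gm2a and Gusb), and 3 without its second library or without the first or second wild type library.

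**Figure D4:**
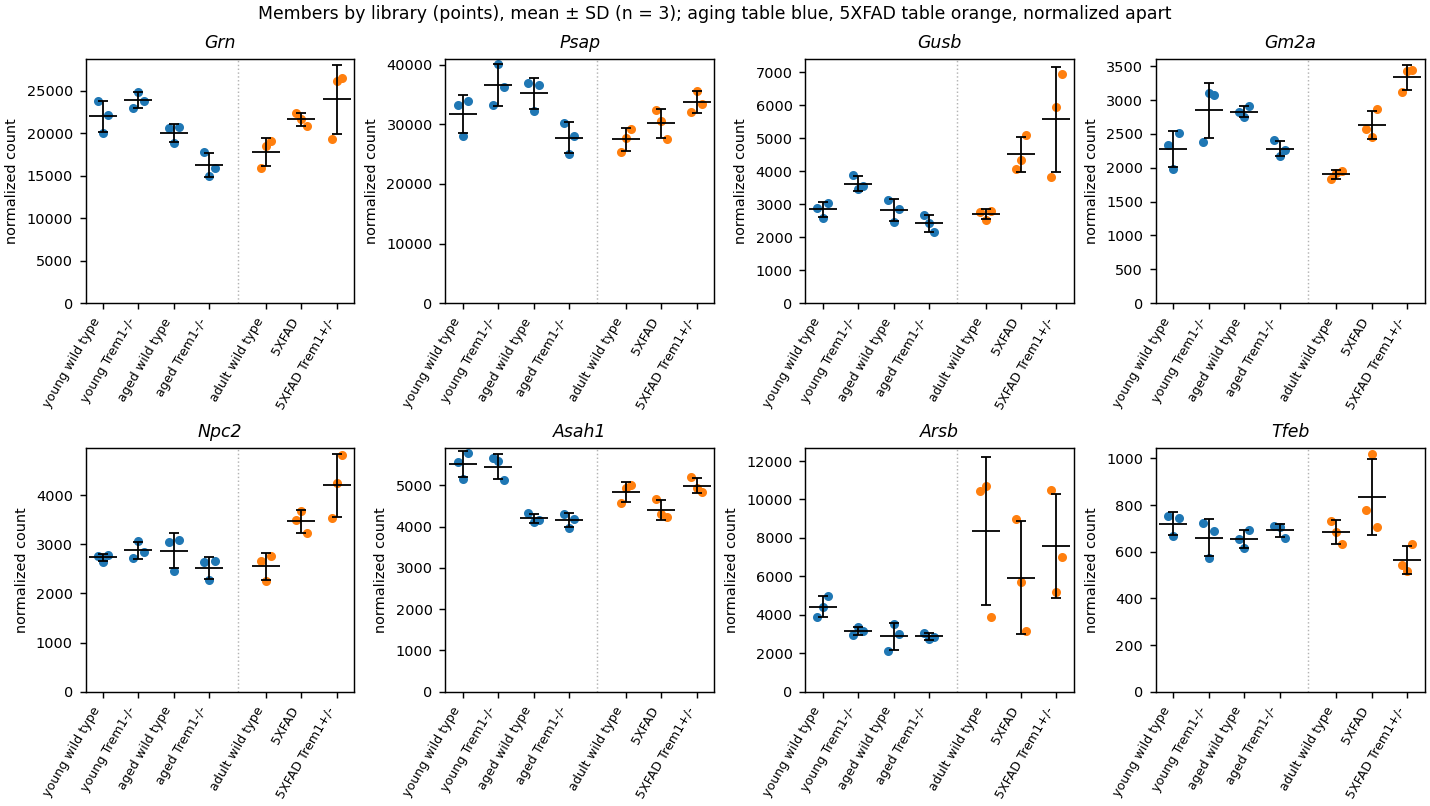
Normalized counts of 8 members in each library (points) with mean ± SD (n = 3) for each group; aging table blue, 5XFAD table orange, normalized apart, all axes from 0. Grn was lowest in the aged libraries labelled Trem1-/-, Gusb, Gm2a and Npc2 were above adult wild type in every 5XFAD and 5XFAD Trem1+/- library, and Arsb was scattered within each group of the 5XFAD table.

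Tfeb itself passed the threshold in none of the 9 comparisons. Its counts in the aging table were 754, 666 and 743 in young wild type, 722, 573 and 688 in young labelled, 657, 617 and 692 in aged wild type and 709, 708 and 660.3 in aged labelled libraries, and all 4 groups overlapped with at least 1 other. Its differences between groups there ran from -0.14 ± 0.15 (aged against young wild type, adjusted p = 0.673) to 0.08 ± 0.15 (aged labelled against aged wild type, adjusted p = 0.907). Adult wild type had 734, 684 and 632. From there 5XFAD differed by 0.27 ± 0.19 (adjusted p = 0.531) and 5XFAD Trem1+/- by -0.28 ± 0.19 (adjusted p = 0.509). A transcript level says nothing of where the protein is in the cell, the step at which Tfeb is known to be controlled.

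Over all 9 comparisons 21 of the 41 members passed the threshold at least once, and 20 never did: Lamp2, Laptm4a, Mcoln1, Cln3, Ctns, Gla, Galc, Manba, Fuca1, Neu1, Sgsh, Ids, Idua, Lipa, Smpd1, Arsa, Plbd2, Tpp1, Acp2 and Tfeb. The share of all genes that passed at least once was not computed, so this count has no background and describes only these members. Gla lay furthest from 0 in several comparisons but was the lowest member per kilobase, with standard errors of 0.41 to 0.65. Missing the threshold with 3 libraries a group does not show that a member did not change. None of the 34 member calls held in every alternative setting, because limma without its trend and robust options called no member in any comparison; its counts over all genes were 0 to 581.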

How the data were processed

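RNA of primary mouse brain microglia was made into NEBNext Ultra libraries, per the labels' protocols. Reads were trimmed with fastp, aligned to GRCm38 with HISAT2 2.0.5, counted with featureCounts 1.5.0-p3 and normalized with DESeq2 1.20.0, per the submitters' processing notes; annotation release and strandedness are not given in the sources used here. The deposited signal of each library is a gene count divided by 1 size factor; within 0.05 of a read at least 99.9956% of values were whole in every library. The deposited tables also hold the authors' log2 fold changes, Wald scores and p-values for 1 pair of groups each; the scores were not used.

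Differences were tested with limma 3.58.1 (trend and robust, R 4.3.3) on log2(normalized count + 1), per table with all its groups, over genes with a mean of at least 10, at a Benjamini-Hochberg adjusted p of 0.05; every adjusted p in the text comes from that test unless another tool or the authors' table is named. Errors of differences are the SE of that fit, with 3 libraries a group. Its spread is pooled over all groups of a table and moderated across genes, so it is not the spread of the compared libraries alone. Fold changes on this scale understate low genes. Alternatives were other pseudocounts, filters and scalings, limma without trend and robust, the 2 groups alone, a replicate block, each library left out, and edgeR 4.0.16 and DESeq2 1.42.0 on recovered reads; scaling to 11 of the microglia markers was chosen after seeing the data. Whether replicate numbers pair 5XFAD with 5XFAD Trem1+/- libraries is not settled. The deviations of all 3 same-numbered pairs from their group means correlated above 0.1 (0.374, 0.155 and 0.149). A differently numbered pair, 5XFAD library 3 with 5XFAD Trem1+/- library 2, was at 0.13, and the labels give no reason for a pairing. The test was tried on simulated data with known answers. The members, the 7 lists of 148 other lysosomal genes and the marker lists were chosen with earlier results of these data known. Named with full statistics were up to 6 members with the smallest p past the threshold in a comparison (2 where none passed), its highest and lowest member, Lamp1, Cd68, Grn, Psap and Tfeb, and up to 3 listed genes. Gene positions are from GENCODE M21.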

Additional observations from a re-analysis of the deposited data

Results flagged for a closer look

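In 2 of 41 members the age difference in libraries labelled Trem1-/- differed from that in wild type by a test of the difference itself (the interaction term of limma, adjusted over all genes). Of all genes 2.54% passed the same test, and each of the 2 calls was lost in 9 of 22 alternative settings. Psap had an interaction of -0.55 (adjusted p = 0.0226): its mean was 31706 normalized counts in young and 35230 in aged wild type, against 36540 young and 27772 aged in the labelled group. Gm2a had an interaction of -0.63 (adjusted p = 0.0448): its mean was 2278 in young and 2829 in aged wild type, against 2847 young and 2282 aged in the labelled group.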

How the results depend on the processing

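None of the 34 member calls passed under every alternative, since limma without trend and robust called 0 members in every comparison. Scaling to the microglia markers called 22 members in aged against young wild type, all higher, 6 in young labelled Trem1-/- against young wild type, 0 in aged against young labelled libraries, 12 higher in aged labelled libraries against young wild type, 6 in the interaction and 12 in 5XFAD. Of all 16086 genes it called 4054, 721, 640, 3920 and 521 in the same order, and 694 of 17025 in 5XFAD, in either direction. It turned 7 calls to log2 differences above 0: Asah1 with age in wild type (0.01385), and in aged labelled libraries against young wild type Grn (0.005644), Asah1 (0.03828), Laptm5 (0.08084), Scarb2 (0.07938), Npc1 (0.07931) and Cd68 (0.08165). For young labelled libraries against young wild type 3 members were called with the 2 groups alone, 2 by DESeq2 and, without the filter, 1, which was lower. DESeq2 called 4 in the interaction and 15 in 5XFAD Trem1+/- against wild type. For 5XFAD against wild type a pseudocount of 0.5 called 2, no filter 9, TMM 1 and edgeR 0; for 5XFAD Trem1+/- against 5XFAD no filter called 1. The cause of these changes was not tested.

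With each library left out the calls ranged from 2 to 4 for aging in wild type, 0 to 2 for young labelled libraries, 2 to 7 for aging in labelled libraries, 3 to 8 for aged labelled against young wild type, 0 to 5 for the interaction, 0 to 3 for 5XFAD and 2 to 12 for 5XFAD Trem1+/- against wild type. The difference of Mcoln1 with age in labelled libraries ranged from -0.002049 to 0.2759. Correlations of same-numbered libraries' deviations from group means ran from -0.22 to 0.148 in the aging table and from -0.043 to 0.108 between adult wild type and the 5XFAD groups, so the numbers were not taken as pairs there. Between 5XFAD and 5XFAD Trem1+/- the same-numbered pairs all lay above 0.1, but 5XFAD library 3 with 5XFAD Trem1+/- library 2 was at 0.13. Whether the numbers pair these libraries is thus not settled. The replicate block called 0 members and 0 genes there, as without it. It was fitted over all libraries of the table, adult wild type included, so it is not a paired test of these groups alone. Elsewhere the block called 2 members in young labelled libraries, 4 in the interaction, 5 in 5XFAD and 13 in 5XFAD Trem1+/- against wild type.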

Other observations

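Arsb was uneven within every group of the 5XFAD table, where its normalized counts were 10423, 10698 and 3891 in adult wild type, 8973, 5683 and 3157 in 5XFAD and 10498, 5183 and 6999 in 5XFAD Trem1+/-. In the aging table it ran from 2134 to 4965 over 12 libraries. Several small genes overlap Arsb in the annotation.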
